A study of Mus musculus with 9 samples.

Results

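The keratins, cornified envelope proteins, transglutaminases and epidermal transcription factors examined here are 44 mouse genes chosen by name, with earlier results of these data known. Of these, 34 had a row in the table of 19044 gene identifiers, and the other 10 (Krt1, Krt2, Krt77, Krt79, Krt17, Krt84, Flg, Sprr1b, Krtdap and Trp63) had no row and were not analysed here. The authors removed genes at zero in all libraries, so a missing row can mean no counts, but whether it does for these 10 is not recorded. The 34 genes comprised 19 keratins, 8 cornified envelope proteins, 3 transglutaminases, 3 grainyhead-like transcription factors and stratifin.

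RNA-seq was performed on 3 mouse squamous cell carcinoma (SCC) cell lines, with 3 biological replicates of each. The tumour was induced with DMBA and TPA on the skin of FVB mice that carried floxed FAK alleles and a tamoxifen-inducible Cre under the keratin 14 promoter, and FAK, the focal adhesion kinase encoded by Ptk2, was deleted in the cultured cells with 4-hydroxytamoxifen. FAK-/- cells are a clone of these cells, and FAK-WT- and FAK-kd-expressing cells are the same clone carrying retroviral wild-type FAK or kinase-deficient FAK, selected with hygromycin. All of these lines therefore share the deletion, Cre exposure and tumour of origin, each line stands for a single clone and its derivatives, and the p-values measure differences against the spread within a line.

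Keratins form the intermediate filaments of epithelial cells as obligate pairs of a type I and a type II protein. In stratified epithelia the pair changes with the layer: Krt5 with Krt14 marks basal keratinocytes, Krt1 with Krt10 the suprabasal epidermis, Krt6 with Krt16 and Krt17 activated keratinocytes, Krt8 with Krt18 simple epithelia, and Krt4 with Krt13 the mucosa. In the last step of differentiation, involucrin, loricrin, small proline-rich proteins, envoplakin and periplakin are crosslinked by transglutaminases into the cornified envelope beneath the plasma membrane.

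Ptk2 read 215 ± 1.92 CPM (counts scaled to library size with TMM, mean ± SD, n = 3) in FAK-WT, 21.6 ± 1.93 in FAK-/- cells and 163 ± 11.5 in FAK-kd cells, and was thus lowest in the cells labelled FAK-deficient. The libraries held from 25304994 to 37264636 counts, apart from FAK-WT replicate 1 with 779755. In that library a single count equals 1.26 CPM and the smallest level told from none (3 counts) is 3.78 CPM. Of the 34 genes, 30 had a mean below this level in the other 8 libraries. In FAK-WT replicate 1, 27 had no count and 3 had more than 3 counts (Krt10, Krt80 and Tgm2). For the remaining genes the FAK-WT level therefore rests on replicates 2 and 3, and a FAK-WT replicate 1 value of 1.26 CPM is 1 count. FAK-/- replicate 3 and FAK-kd replicate 1 differed from the other replicates of their lines by more than these differed from each other (chi-square per degree of freedom over genes of 53.3 and 59.0 against 3.31 in FAK-/- cells, and of 17.1 and 18.9 against 5.27 in FAK-kd cells). Calls that changed without one of these libraries are named with the genes below.

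The SCC cells held little mRNA of most of these keratin and cornified envelope genes. A mean of at least 1 CPM over the 9 libraries was reached by 7 of the 34 genes (20.6%), compared with 57.3% of all genes in the table, and none reached 100 CPM. The basal keratins Krt5 and Krt14 had 7 and 20 counts summed over all libraries (all 7 of Krt5 in FAK-WT replicates 2 and 3), and E-cadherin (Cdh1), the adhesion protein of epithelial cells, had 4. The suprabasal Krt78, the activation keratin Krt6b, and Krt75, Krt23, Krt4, Sprr3, Grhl3, Grhl2, Ppl and Krt18 also stayed under 10 counts in total, which makes 11 such genes with Krt5. By contrast, vimentin (Vim), the intermediate filament protein of mesenchymal cells, read 6859 to 8143 CPM over the 9 libraries, N-cadherin (Cdh2) 108 to 153 CPM and Zeb1, a repressor of epithelial genes, 85.6 to 118 CPM. Some genes of basal keratinocytes were present, with Itga6 and Itgb4, the chains of the hemidesmosomal integrin, at 169 to 297 and 54.1 to 102 CPM, and syndecan-1 (Sdc1) at 134 to 163 CPM. These belong to a list of 20 other epithelial markers, of which 13 had a row and only 4 reached a mean of 1 CPM. Of 24 other keratinocyte transcription factors tested, 13 also reached a mean of 1 CPM. Klf4 read 67.2 to 90.3 CPM and Klf5 13.8 to 30.2 CPM. Of 36 other cornification and barrier genes tested, 5 reached that mean, and Anxa1 among these read 1534 to 2325 CPM. The labelled tissue of origin is thus not matched by its defining keratins in any of the 3 lines, and the values below are those of a small keratin fraction.

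**Figure D1:**
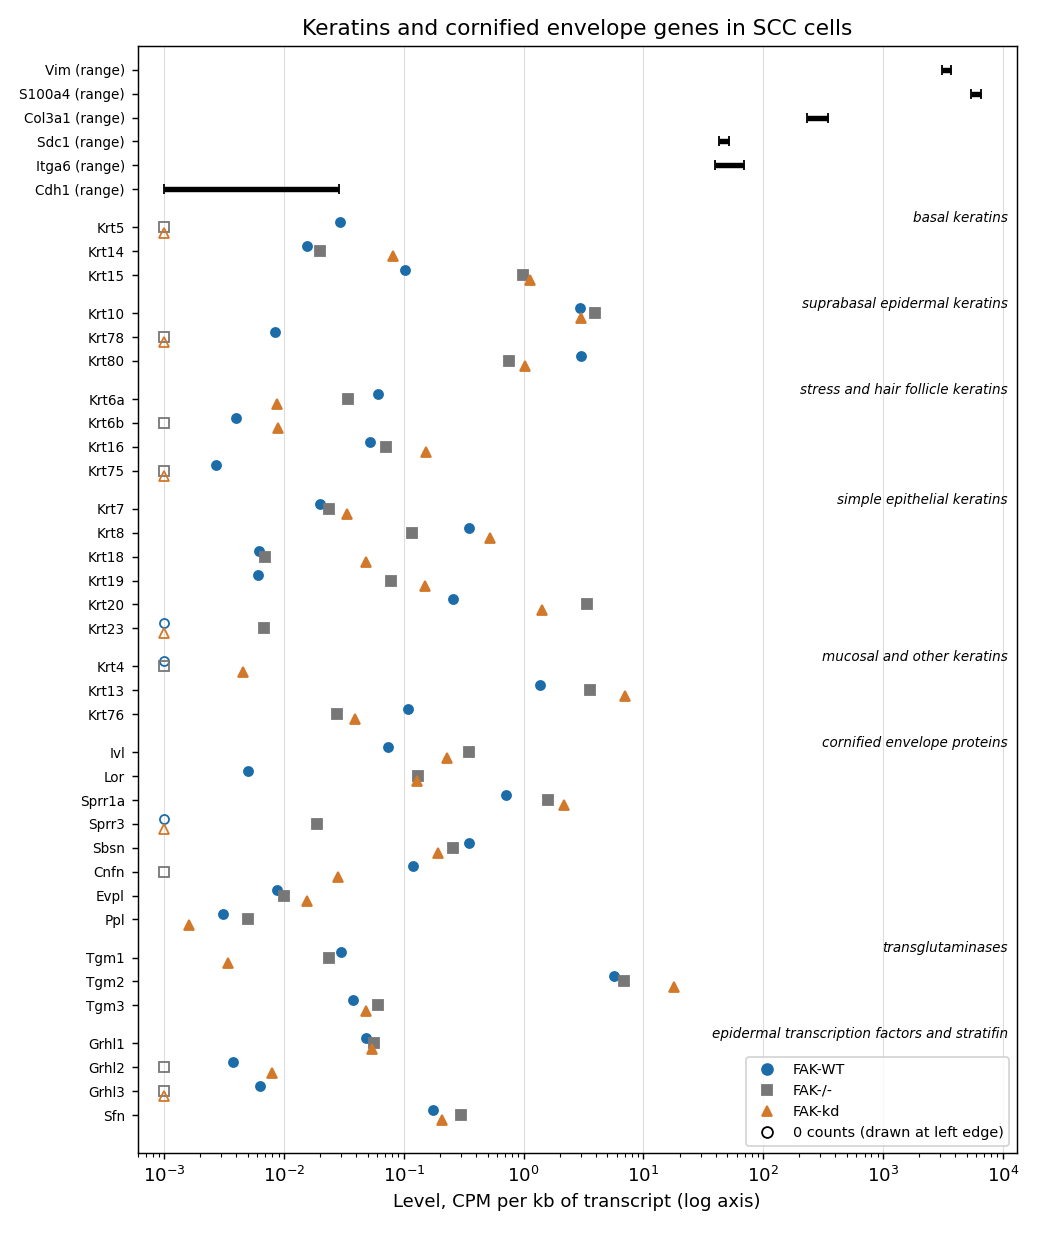
Mean level of the 34 genes in each cell line (n = 3 libraries), in CPM per kb of the longest protein-coding transcript on a log axis, grouped by role; open symbols at the left edge mark lines with 0 counts, and black bars give the range over 9 libraries of 6 marker genes, with 0 drawn at the left edge for Cdh1. Tgm2 led the set in each line, and Krt5, Krt14 and Krt18 lay below Tgm2, Krt13, Krt10, Krt20 and Krt80 in each. FAK-WT means of low genes include the 1-count values of replicate 1.

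On the scale per kb of transcript, which allows genes to be compared, the level in FAK-WT cells was led by Tgm2 (5.66 CPM per kb), Krt80 (3.00), Krt10 (2.93) and Krt13 (1.37). In FAK-/- cells the order was Tgm2 (6.94), Krt10 (3.95), Krt13 (3.58), Krt20 (3.37), Sprr1a (1.59), Krt15 (0.981) and Krt80 (0.759). FAK-kd cells had Tgm2 first (18.0), then Krt13 (7.00), Krt10 (3.03), Sprr1a (2.15), Krt20 (1.42), Krt15 (1.13) and Krt80 (1.02). The order among Krt80, Krt10 and Krt13 differed from line to line, whereas Tgm2, the broadly expressed tissue transglutaminase, was first in each. Krt80 and Krt10 were close in FAK-WT cells. Krt10 was the higher in FAK-WT replicates 1 (3.01 against 2.89 CPM per kb) and 3 (2.99 against 2.83), so their order there is not settled.

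A call required a Benjamini-Hochberg adjusted p of at most 0.05 together with a log2 difference of 1 or more in either direction, from edgeR's quasi-likelihood test on all 19044 genes. FAK-WT cells differed from FAK-/- cells in 8 of the 34 genes (23.5%), against 5.38% of all genes tested. Of these 8, 2 were higher in FAK-WT cells (Krt80 and Cnfn; 2.32% of all genes) and 6 were lower (Krt13, Krt15, Krt20, Ivl, Lor and Sprr1a; 3.06% of all genes). FAK-WT cells differed from FAK-kd cells in 9 genes (26.5%), against 5.26% of all genes, with Krt80 and Krt6a higher (2.37% of all genes) and Krt13, Krt15, Krt19, Krt20, Lor, Sprr1a and Tgm2 lower (2.89% of all genes). FAK-kd cells differed from FAK-/- cells in 3 genes (8.82%), against 2.01% of all genes, with Krt8 and Tgm2 higher (0.914% of all genes) and Krt20 lower (1.09% of all genes). By the adjusted p alone the counts were 9 (18% of all genes), 9 (17.7%) and 4 (7.84%) in the same order. Without FAK-WT replicate 1 the calls numbered 6, 11 and 3, without FAK-/- replicate 3 they numbered 6, 12 and 4, and without FAK-kd replicate 1 they numbered 6, 7 and 3. Over all genes, these fits gave 413 higher and 575 lower, 460 and 565, and 436 and 554 for FAK-WT against FAK-/- cells. Fits without any 1 library gave 334 to 541 genes higher and 441 to 609 lower for FAK-WT against FAK-kd cells. The ranges were 128 to 194 and 134 to 214 for FAK-kd against FAK-/- cells. Krt5, at 7 counts in FAK-WT and none in FAK-kd cells (adjusted p = 0.0571), was one of the calls gained against FAK-kd cells without FAK-/- replicate 3, and it was also gained in the fit of those 2 lines alone. In all, 12 genes were called in at least 1 comparison and 22 in none. Each pair of comparisons shares a cell line, so that the counts are not independent of each other. The genes were also chosen with earlier results of these data known, so their share beside that of all genes is no test of the set. The median log2 fold change of the 34 genes was 0.24 for FAK-WT against FAK-/-, -0.13 for FAK-WT against FAK-kd and 0.10 for FAK-kd against FAK-/- cells, beside 0.00 over all genes in each. A second median set genes with no count in 1 group to their bound, and genes with at most 3 summed counts in both groups to 0. It was 0.00 in each comparison, but the latter genes are at 0 by rule, so it cannot show whether the lines differ.

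**Figure D2:**
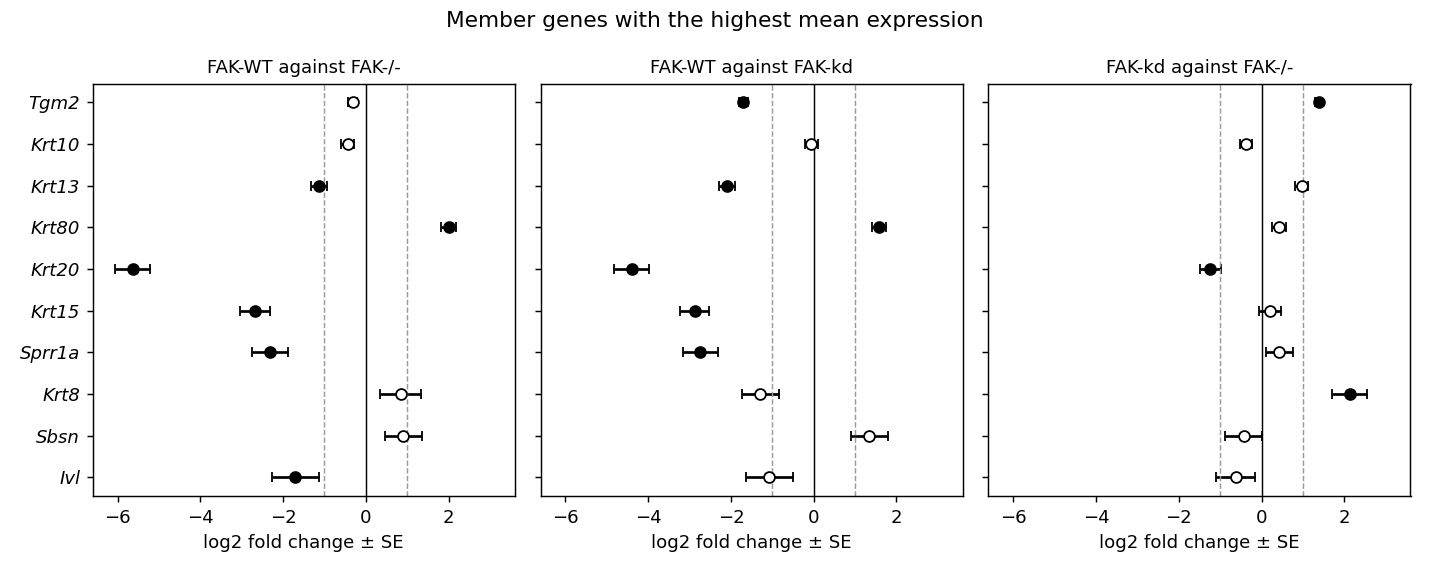
Log2 fold change ± SE from edgeR of the 10 genes with the highest mean expression in the 3 comparisons, in order of mean CPM; filled points passed the threshold, open points did not, and dashed lines mark a change of 1 in size. Krt80 lay to the right, and Krt13, Krt20, Krt15 and Sprr1a to the left, in both FAK-WT comparisons, and Tgm2 was called in the FAK-kd comparisons.

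Among the type I keratins, FAK-WT cells had less Krt13, Krt15 and Krt20 mRNA than either other line. Krt13, the type I keratin of mucosal suprabasal layers (ENSMUSG00000044041, mm10 chr11:100117327-100121566, minus strand), read 1.26, 2.63 and 2.88 CPM in FAK-WT replicates 1 to 3, 5.15, 6.11 and 6.50 CPM in FAK-/- and 14.2, 10.3 and 10.3 CPM in FAK-kd cells. FAK-kd libraries lay above FAK-/- libraries, which lay above FAK-WT replicates 2 and 3. FAK-WT replicate 1 held 1 count, under the 3 counts told from none, and cannot be placed. The log2 fold change of Krt13 was -1.13 (SE 0.19, adjusted p = 0.00064) for FAK-WT against FAK-/- and -2.10 (SE 0.19, adjusted p = 1.67e-06) for FAK-WT against FAK-kd cells. It was 0.97 (SE 0.16, adjusted p = 0.00143) for FAK-kd against FAK-/- cells, just under the fold change required, and passed it without FAK-kd replicate 2, FAK-kd replicate 3 or FAK-/- replicate 3, at 1.04 each. The FAK-WT against FAK-/- difference was not called when tested against a log2 fold change of 1 itself (edgeR glmTreat, adjusted p = 1). The mRNA of Krt13 shares 0.168% of its 31-base words with another gene.

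Krt20, a type I keratin of intestinal epithelium and of Merkel cells (ENSMUSG00000035775, mm10 chr11:99428403-99438150, minus strand), had the largest difference in size among the 10 genes of highest mean expression. It read 1.26, 0.106 and 0.115 CPM in FAK-WT cells, which correspond to 1, 4 and 4 counts. FAK-/- libraries held 6.29, 7.02 and 6.18 CPM and FAK-kd libraries 3.48, 2.82 and 1.93 CPM. FAK-/- libraries lay above FAK-kd libraries, which lay above FAK-WT replicates 2 and 3. The 1 count of FAK-WT replicate 1 is under the 3 counts told from none and cannot place that library. From counts summed by line, 581 in FAK-/- against 9 in FAK-WT cells, Krt20 was 52.1-fold lower in FAK-WT cells (exact 95% interval 27.3 to 115, counting error only), and edgeR gave a log2 fold change of -5.64 (SE 0.42, adjusted p = 1.52e-07). Against FAK-kd cells, with 276 counts, it was 21.8-fold lower (11.3 to 48.2; edgeR log2 fold change -4.40, SE 0.42, adjusted p = 2.65e-06). FAK-kd cells had less Krt20 than FAK-/- cells (log2 fold change -1.24, SE 0.25, adjusted p = 0.00601). This last call was lost with DESeq2 (adjusted p = 0.0965), in edgeR without FAK-kd replicate 3 (adjusted p = 0.0522), and when tested against a log2 fold change of 1 (adjusted p = 1).

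Krt15, a type I keratin of basal and hair follicle stem cells (ENSMUSG00000054146, mm10 chr11:100131758-100135928, minus strand), read 0, 0.266 and 0.260 CPM in FAK-WT cells. FAK-/- libraries held 1.65, 1.50 and 1.86 CPM, and FAK-kd libraries 1.89, 2.25 and 1.64 CPM. FAK-WT replicates 2 and 3 lay below all libraries of the other lines, whereas FAK-/- and FAK-kd libraries overlapped. The 0 of FAK-WT replicate 1 cannot place that library, because the other lines lie under its smallest level told from none. The log2 fold change was -2.68 (SE 0.36, adjusted p = 6.46e-05) against FAK-/- cells and -2.88 (SE 0.35, adjusted p = 3.07e-05) against FAK-kd cells, and 0.20 (SE 0.26, adjusted p = 0.699) between FAK-kd and FAK-/- cells.

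Krt13, Krt15 and Krt19 lie side by side in 31339 bases of the type I keratin cluster (mm10 chr11:100117327-100148665), all on the minus strand. Krt19, the smallest keratin and a marker of ductal and simple epithelia, was named after its values were seen, as were Krt6a, Lor and Cnfn below. It had 1 count summed over FAK-WT, 11 over FAK-/- and 24 over FAK-kd libraries, and was lower in FAK-WT than in FAK-kd cells (ratio of summed counts 17.1, exact 95% interval 2.79 to 702; adjusted p = 0.0153). All these neighbours were thus lower in FAK-WT than in FAK-kd cells. Against FAK-/- cells, Krt19 did not pass the test (log2 fold change -2.82, SE 1.06, adjusted p = 0.0844). The call against FAK-kd cells was lost with DESeq2, with filterByExpr (edgeR's filter on low counts), which dropped the gene, with glmTreat, and without FAK-kd replicate 1 or FAK-WT replicate 2. The next keratins with a row on that side of the cluster, Krt14 and Krt16, were called in no comparison at 20 and 44 counts in all, with 28.2% and 51.9% of their 31-base words shared with other genes. Krt12, the corneal type I keratin that lies 6144 bases from Krt20 and is not among the 34 genes, read 0, 0.985 and 1.21 CPM in FAK-WT, 3.24, 3.86 and 4.35 CPM in FAK-/- cells and 0.839, 0.599 and 0.556 CPM in FAK-kd cells. Krt12 was highest in FAK-/- cells, with log2 fold changes of -1.85 (SE 0.32, adjusted p = 0.000649) for FAK-WT and -2.51 (SE 0.30, adjusted p = 6.07e-05) for FAK-kd against FAK-/- cells.

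Krt10, the type I keratin of suprabasal epidermis, was the highest type I keratin per kb in FAK-WT and FAK-/- cells and was called in no comparison. It read 6.29, 5.88 and 6.26 CPM in FAK-WT, 7.37, 7.85 and 9.57 CPM in FAK-/- cells and 5.88, 6.17 and 7.00 CPM in FAK-kd cells. FAK-/- libraries lay above all the others, and FAK-WT and FAK-kd libraries overlapped. The log2 fold change was -0.44 (SE 0.16, adjusted p = 0.0641) for FAK-WT against FAK-/-, -0.06 (SE 0.16, adjusted p = 0.859) for FAK-WT against FAK-kd and -0.38 (SE 0.14, adjusted p = 0.127) for FAK-kd against FAK-/- cells. Its type II partner Krt1 had no row in the table.

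**Figure D3:**
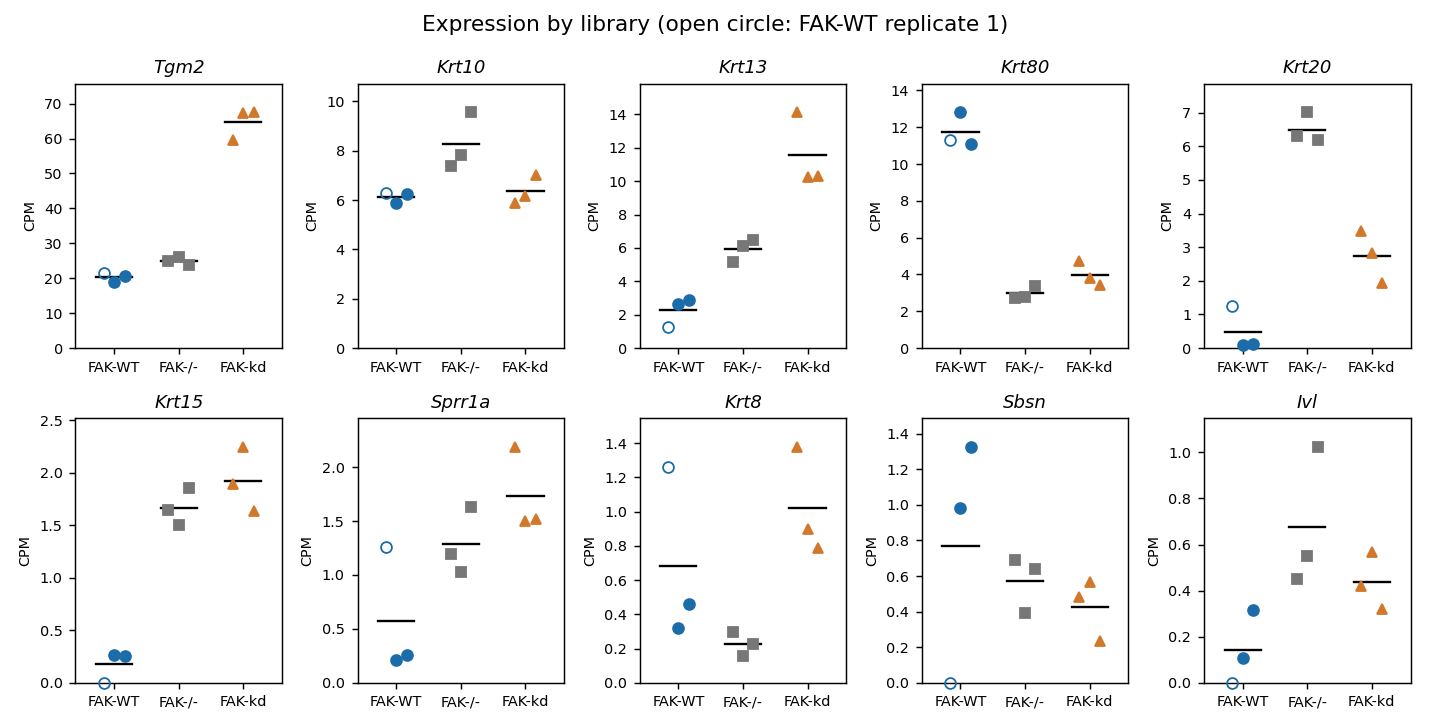
CPM in each library of the 10 genes with the highest mean expression, with horizontal bars at the mean of 3 libraries and each vertical axis starting at 0; the open circle is FAK-WT replicate 1, in which a single count equals 1.26 CPM. Krt80 was highest in FAK-WT libraries, Krt20 and Krt15 were low there, and Tgm2 was highest in FAK-kd libraries.

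Krt80 was the type II keratin with the highest level, and the only one called higher in FAK-WT cells than in both other lines. It is a type II keratin found in many epithelia near desmosomal junctions (ENSMUSG00000037185, mm10 chr15:101347444-101370162, minus strand). Krt80 read 11.3, 12.8 and 11.1 CPM in FAK-WT, 2.73, 2.80 and 3.39 CPM in FAK-/- cells and 4.74, 3.80 and 3.43 CPM in FAK-kd cells. Every FAK-WT library, replicate 1 with 9 counts included, lay above every other library, and FAK-kd libraries lay above FAK-/- libraries by a margin under the spread within lines. The log2 fold change was 2.00 (SE 0.18, adjusted p = 1.05e-06) against FAK-/- cells and 1.58 (SE 0.17, adjusted p = 9.63e-06) against FAK-kd cells, and it was 0.42 (SE 0.17, adjusted p = 0.164) for FAK-kd against FAK-/- cells. Without each library in turn, the difference ranged from 1.91 to 2.11 against FAK-/- and from 1.49 to 1.73 against FAK-kd cells. An exact permutation test of CPM cannot go below p = 0.1 with 3 libraries against 3, the value that Krt80 gave in each FAK-WT comparison.

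Krt8, the type II keratin of simple epithelia, read 1.26, 0.319 and 0.461 CPM in FAK-WT, 0.300, 0.158 and 0.224 CPM in FAK-/- cells and 1.38, 0.899 and 0.791 CPM in FAK-kd cells. FAK-kd libraries lay above FAK-/- libraries, with a log2 fold change of 2.13 (SE 0.43, adjusted p = 0.00548), which was not called when tested against a log2 fold change of 1 (adjusted p = 0.24). FAK-WT against FAK-kd cells gave -1.29 (SE 0.45, adjusted p = 0.0619), and the threshold was passed without FAK-WT replicate 1 (adjusted p = 0.0358), without FAK-/- replicate 3 (adjusted p = 0.029), in the fit of those 2 lines alone and with filterByExpr (adjusted p = 0.039 each). Of the 31-base words of Krt8, 36.0% also occur in other genes, most often in its pseudogene Krt8-ps, which had no row, so that the source of these reads is uncertain. Krt18, the type I partner of Krt8, had 9 counts in all. Krt6a, a type II keratin induced in activated keratinocytes, had 15 counts in FAK-WT and 2 in FAK-kd cells (ratio 10.54, exact 95% interval 2.45 to 94.97; adjusted p = 0.0236), but it shares 62.0% of its 31-base words, most of them with Krt6b, and the call was lost with DESeq2, with filterByExpr, with glmTreat, with the replicate number as a block and without FAK-kd replicate 2 or 3 or FAK-WT replicate 2 or 3.

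Summed over the 9 type I and 10 type II keratins among the 34 genes, keratin mRNA was 8.32 ± 0.319 CPM per kb in FAK-WT, 13.0 ± 1.04 in FAK-/- cells and 14.7 ± 1.90 in FAK-kd cells (mean ± SD, n = 3). The sum leaves out 15 further keratins with a row. Among them is the type I keratin Krt12, at 0.732 ± 0.644, 3.82 ± 0.560 and 0.665 ± 0.153 CPM in the same order. The order of FAK-/- and FAK-kd cells in the sum is therefore that of these 19 keratins alone. Type I mRNA made up most of this sum, at 4.74 ± 0.301, 12.1 ± 0.960 and 13.0 ± 1.61 CPM per kb in the same order, while type II mRNA was 3.58 ± 0.165, 0.960 ± 0.118 and 1.64 ± 0.308 CPM per kb. Type II keratins were therefore 43.1% ± 2.05 of the sum over these 19 keratins in FAK-WT, 7.37% ± 0.648 in FAK-/- cells and 11.1% ± 0.861 in FAK-kd cells, and the libraries of the 3 lines did not overlap. Krt80 alone made up 83.7% ± 2.86, 79.1% ± 4.56 and 62.4% ± 2.54 of the type II sum. FAK-WT replicate 1 contributed 17 keratin counts, and its type II share, 44.4%, lay beside 44.04% and 40.7% in replicates 2 and 3. With the median in place of the longest transcript length, the FAK-WT share was 40.7%. In every line the level of Vim exceeded the sum of these 19 keratins, by 407 ± 16.9-fold in FAK-WT, 250 ± 9.74-fold in FAK-/- cells and 251 ± 33.6-fold in FAK-kd cells. Fewer keratin-expressing cells and less keratin mRNA per cell cannot be told apart in these bulk samples.

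**Figure D4:**
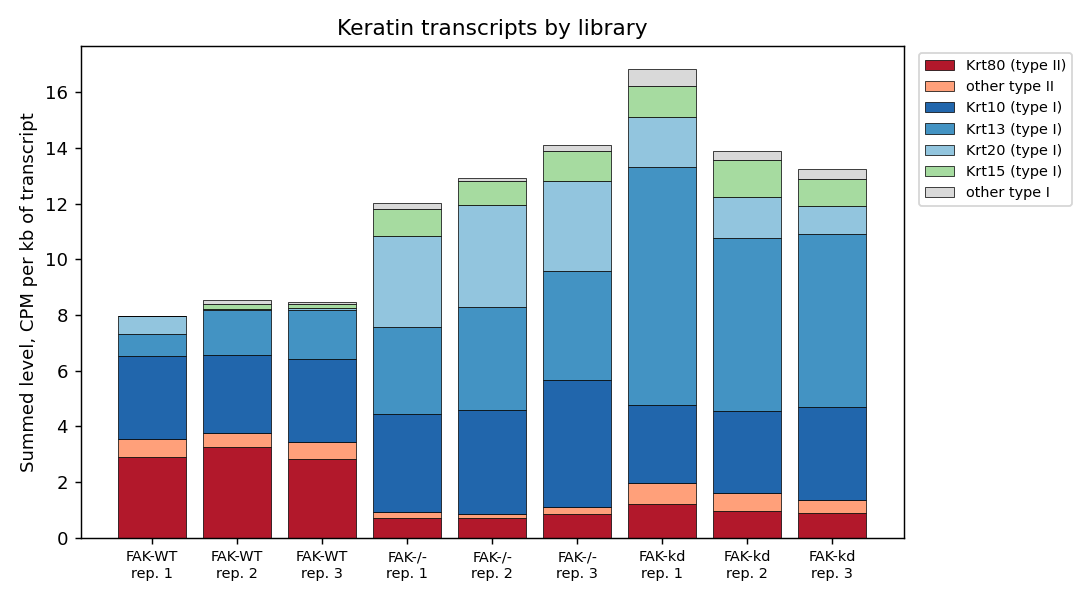
Summed level of the 19 keratins in each library, in CPM per kb of transcript, stacked by gene with type II keratins at the base in red. The red base makes up 40.7% to 44.4% of the stack in FAK-WT libraries and 6.63% to 11.6% in the others, where Krt13 and Krt10 take the largest segments in most libraries.

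Of the 8 cornified envelope genes, 3 were lower in FAK-WT-expressing than in FAK-/- cells (Ivl, Lor and Sprr1a), 1 was higher (Cnfn) and 4 were not called, beside 3.06% of all genes lower and 2.32% higher; 2 were lower in FAK-WT than in FAK-kd cells (Lor and Sprr1a), beside 2.89% of all genes; and none was called between FAK-kd and FAK-/- cells. Sprr1a, a small proline-rich envelope precursor that is also induced by stress and injury (ENSMUSG00000050359, mm10 chr3:92483952-92485895, minus strand), was the highest of them. It read 1.26, 0.213 and 0.260 CPM in FAK-WT (1, 8 and 9 counts), 1.20, 1.03 and 1.63 CPM in FAK-/- cells and 2.19, 1.50 and 1.52 CPM in FAK-kd cells. FAK-WT replicates 2 and 3 lay below all libraries of the other lines, and the 1 count of replicate 1 overlapped FAK-/- cells. The log2 fold change was -2.31 (SE 0.43, adjusted p = 0.00132) against FAK-/- and -2.74 (SE 0.43, adjusted p = 0.000285) against FAK-kd cells.

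Involucrin (Ivl), an early scaffold of the envelope, read 0, 0.106 and 0.317 CPM in FAK-WT, 0.449, 0.552 and 1.02 CPM in FAK-/- cells and 0.420, 0.569 and 0.322 CPM in FAK-kd cells. It was lower in FAK-WT-expressing than in FAK-/- cells (log2 fold change -1.70, SE 0.56, adjusted p = 0.0488), with 15 against 61 summed counts. The call was lost in 7 of the 9 fits that each left out a library, among them the one without FAK-WT replicate 1 (adjusted p = 0.0551) and the one without FAK-/- replicate 3 (adjusted p = 0.143), and also with DESeq2 (adjusted p = 0.182), with glmTreat and in the fit of the 2 lines alone. Loricrin (Lor), the main envelope protein of epidermis, had 1 count in FAK-WT, 21 in FAK-/- cells and 23 in FAK-kd cells. Both comparisons placed FAK-WT cells lower (ratio 16.9, exact 95% interval 2.73 to 701, adjusted p = 0.0358 against FAK-/-; ratio 16.4, 2.66 to 674, adjusted p = 0.037 against FAK-kd), and 17 of the 23 FAK-kd counts came from replicate 1, without which the call against FAK-kd cells was lost. Both Lor calls were also lost with DESeq2, filterByExpr, glmTreat, the replicate number as a block and without FAK-WT replicate 2 or 3, and the call against FAK-/- cells without FAK-/- replicate 1 or 2. Cornifelin (Cnfn) had 9 counts in FAK-WT and none in FAK-/- cells, at least 3.72-fold higher against a floor of 3 counts over the group (exact 95% interval of the ratio from 2.45 upwards; adjusted p = 0.0457). The Cnfn call was lost in 8 of the 9 fits that left out a library, the exception being FAK-kd replicate 3, as well as with DESeq2, filterByExpr, glmTreat and the replicate number as a block.

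Suprabasin (Sbsn), secreted by suprabasal keratinocytes, read 0, 0.985 and 1.33 CPM in FAK-WT, 0.689, 0.394 and 0.640 CPM in FAK-/- cells and 0.480, 0.569 and 0.234 CPM in FAK-kd cells. FAK-WT replicates 2 and 3 lay above all other libraries, and replicate 1 had no count. FAK-WT against FAK-kd cells gave a log2 fold change of 1.34 (SE 0.45, adjusted p = 0.0507), which passed the threshold without FAK-WT replicate 1 (adjusted p = 0.0263) or any FAK-/- library, with filterByExpr, in the fit of those 2 lines alone, and with library size or DESeq2 size factors in place of TMM. The plakins Evpl and Ppl, which link the envelope to keratin filaments, had 22 and 6 counts in all and were not called.

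Tgm2, tissue transglutaminase (ENSMUSG00000037820, mm10 chr2:158116402-158146436, minus strand), was the highest of the 34 genes and the only one called higher in FAK-kd cells than in both other lines. It read 21.4, 19.0 and 20.7 CPM in FAK-WT, 24.9, 26.1 and 23.9 CPM in FAK-/- cells and 59.7, 67.2 and 67.6 CPM in FAK-kd cells. The lines did not overlap. The log2 fold change was 1.38 (SE 0.09, adjusted p = 1.55e-07) for FAK-kd against FAK-/- and -1.70 (SE 0.10, adjusted p = 1.31e-08) for FAK-WT against FAK-kd cells. The difference between FAK-WT and FAK-/- cells was -0.32 (SE 0.10, adjusted p = 0.0338), under the fold change required. Of its 31-base words, 19.95% also occur in other genes, most often in Gm20412, which had no row, and Rprd1b on the opposite strand overlaps Tgm2. Because the library kit does not mark strand, reads from the overlap cannot be told apart, and Rprd1b itself read 69.2 to 81.5 CPM with a log2 fold change of 0.11 (SE 0.07, adjusted p = 0.409) for FAK-kd against FAK-/- cells. The epidermal transglutaminases Tgm1 and Tgm3, which crosslink the envelope in keratinocytes, had 16 and 60 counts in all and were called in no comparison.

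Of the epidermal transcription factors, Grhl1, an activator of desmosomal and differentiation genes, had 54 counts in all, and Grhl2 and Grhl3 had 6 and 2. Stratifin (Sfn), a 14-3-3 protein of stratified epithelia, had 110 counts, at 0 to 0.479 CPM in FAK-WT, 0.276 to 0.608 in FAK-/- cells and 0.300 to 0.389 in FAK-kd cells, and 26.8% of its 31-base words occur in other genes. None of these 4 was called in any comparison, with Sfn at log2 fold changes of -0.24 (SE 0.46), 0.29 (SE 0.47) and -0.53 (SE 0.43) in the order FAK-WT against FAK-/-, FAK-WT against FAK-kd and FAK-kd against FAK-/- cells. At these counts a difference of such a size was not detectable.

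The sequences before the starts of Krt13, Krt20 and Sprr1a are shown because these genes were lower in FAK-WT cells than in both other lines, had a mean of at least 1 CPM and were in the promoter table; Krt15, Krt80 and Tgm2 had no entry. They are the 250 bases upstream of the RefSeq start (GRCm38.p6), 5′ to 3′ on the transcribed strand, at chr11:100121567-100121816, chr11:99438154-99438403 and chr3:92485882-92486131. Capitals mark matches, on either strand, to the AP-1 motif TGAGTCA, the E-box CAGGTG that Snail and Zeb repressors recognise, and the TATA box TATAAA.
Krt13: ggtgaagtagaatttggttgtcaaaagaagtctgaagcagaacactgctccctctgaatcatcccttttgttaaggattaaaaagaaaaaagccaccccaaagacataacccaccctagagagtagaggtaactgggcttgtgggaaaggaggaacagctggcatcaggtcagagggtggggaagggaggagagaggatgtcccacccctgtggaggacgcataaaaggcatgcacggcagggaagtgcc
Krt20: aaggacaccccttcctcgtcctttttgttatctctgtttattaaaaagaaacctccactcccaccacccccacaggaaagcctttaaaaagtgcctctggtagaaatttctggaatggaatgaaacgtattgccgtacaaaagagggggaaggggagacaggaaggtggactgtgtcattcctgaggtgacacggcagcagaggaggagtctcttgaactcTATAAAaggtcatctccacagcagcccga
Sprr1a: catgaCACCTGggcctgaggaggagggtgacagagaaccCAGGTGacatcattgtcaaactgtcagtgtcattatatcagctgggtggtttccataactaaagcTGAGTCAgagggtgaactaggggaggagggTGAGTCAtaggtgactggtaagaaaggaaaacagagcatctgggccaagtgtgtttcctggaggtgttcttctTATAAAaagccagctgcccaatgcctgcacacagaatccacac
The Sprr1a window held 2 AP-1 motifs, with first bases at -146 and -116 from the start, an E-box on each strand at -211 and -245, and a TATA box at -43. In the same window length, 4.46% of 32851 mouse promoters held the AP-1 motif, 17.2% the E-box and 12.4% the TATA box. Krt20 held a TATA box at -29, and none of the motifs was in the Krt13 window. The annotated start of Sprr1a in GENCODE lies within the window, slightly upstream of the RefSeq start. These matches describe the letters of the windows, and no binding was measured.

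Other genes of the same programme, read against 5.38%, 5.26% and 2.01% of all genes called in the 3 comparisons, were counted from lists. Of 65 further cornification and barrier genes, 36 were tested, with 3 higher and 1 lower in FAK-WT-expressing than in FAK-/- cells (11.1%), 2 higher and none lower than in FAK-kd cells (5.56%), and 1 higher and 1 lower in FAK-kd than in FAK-/- cells (5.56%). Corneodesmosin (Cdsn), an adhesion protein of the cornified layer, was 3.28 ± 0.491 CPM in FAK-WT, 0.979 ± 0.283 in FAK-/- cells and 1.38 ± 0.395 in FAK-kd cells, higher in FAK-WT cells in both comparisons (log2 fold changes 1.66 and 1.16, adjusted p = 0.00148 and 0.0146). Fabp5, the epidermal fatty acid-binding protein, was lower in FAK-WT-expressing than in FAK-/- cells (15.7 ± 3.86 against 35.1 ± 3.72 CPM; log2 fold change -1.01, adjusted p = 3.33e-05). Of 24 tested among 26 other keratinocyte transcription factors, 5 were lower in FAK-WT-expressing than in FAK-/- cells (20.8%), 3 were lower and 1 higher than in FAK-kd cells (16.7%), and none was called between FAK-kd and FAK-/- cells. Maf, a regulator of keratinocyte differentiation, was 7.29 ± 2.42 CPM in FAK-WT, 28.1 ± 0.725 in FAK-/- cells and 22.03 ± 1.31 in FAK-kd cells, and Sox2 was 94.0 ± 1.81, 211 ± 24.8 and 170 ± 2.92 CPM.

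Markers of other cell states were counted in the same fit, with the same shares of all genes (5.38%, 5.26% and 2.01%) as the background. Of 13 tested among 20 other epithelial markers, 1 was higher in FAK-WT-expressing than in FAK-/- cells (7.69%) and none was called otherwise. Of 19 mesenchymal and fibroblast markers, 1 was higher and 3 were lower in FAK-WT-expressing than in FAK-/- cells (21.1%), 3 were lower than in FAK-kd cells (15.8%), and 1 was higher in FAK-kd than in FAK-/- cells (5.26%). Their summed level was 14697 to 14925 CPM in FAK-WT, 14959 to 15344 in FAK-/- and 16003 to 16963 in FAK-kd libraries. Acta2, smooth muscle actin, was lower in FAK-WT cells, at 0.977 ± 0.847 CPM in FAK-WT, 74.9 ± 3.40 in FAK-/- cells and 108 ± 8.999 in FAK-kd cells, and Snai2, a repressor of epithelial genes, was higher there, at 46.2 ± 0.437, 19.8 ± 1.82 and 24.8 ± 2.57 CPM in the same order (log2 fold change against FAK-/- cells 1.21, SE 0.11, adjusted p = 1.05e-06). The part of such markers in the keratin values was not tested. Of 8 tested among 11 immune, endothelial and melanocyte markers, with sums of 1.26 to 4.28 CPM in FAK-WT, 3.47 to 4.03 in FAK-/- and 1.86 to 2.99 in FAK-kd libraries, the endothelial cadherin Cdh5, named after its values were seen, was higher in FAK-WT cells than in both other lines at 1.49 ± 0.416 CPM, the macrophage marker Cd68 read 1.26 ± 1.09, 2.72 ± 0.400 and 2.05 ± 0.495 CPM in FAK-WT, FAK-/- and FAK-kd cells, and Ptprc and Pecam1 stayed at or below 0.629 CPM in every library. Of 15 further keratins with a row, Krt12 was the only one called.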

How the data were processed

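RNA was measured in 9 libraries of 3 SCC cell lines (TruSeq RNA v2, paired-end reads). The authors pseudoaligned reads with kallisto 0.43.1 and collapsed transcripts to genes with tximport. The authors deposited estimated counts as whole numbers without scaling and with genes at zero in all libraries removed. The transcriptome release is not given in the sources used here. The rounded values were analysed with edgeR 4.0.16 in R 4.3.3 (TMM, glmQLFit and glmQLFTest, no filter, cell line as the only factor, all 9 libraries in 1 fit), with Benjamini-Hochberg adjustment over 19044 identifiers, of which 18856 had a symbol. The steps were tested on simulated data.

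Cell lines and replicate numbers came from the sample labels. Symbols, mm10 positions and transcript lengths came from GENCODE, and 31-base words were compared among its transcripts. RefSeq promoters matched 23 of the 34 genes. Depths were 25304994 to 37264636 counts, apart from 779755 in FAK-WT replicate 1, and intervals cover counting error only. The 44 genes and the 6 comparison lists were chosen with earlier results of these data known. Values in every library were given for the 10 genes with the highest mean CPM, which include every called gene with a mean of at least 1 CPM. From the comparison lists, up to 4 called genes with a mean of at least 1 CPM and the largest changes were eligible to be named. Alternatives were DESeq2 1.42.0, its size factors or library size in edgeR, filterByExpr, at least 10 counts in every library, a fit of 2 lines at a time, the adjusted p-value alone, glmTreat, a replicate block and leaving out each library; median transcript length was added after seeing the data.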

Additional observations from a re-analysis of the deposited data

How the results depend on the processing

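For FAK-WT against FAK-/- cells, 1 member gene was higher with DESeq2, filterByExpr, glmTreat or the replicate block, 0 were higher and 0 lower with at least 10 counts in every library, and 3 were lower with glmTreat. For FAK-WT against FAK-kd cells, 1 was higher with DESeq2, glmTreat or the replicate block, 4 in the fit of those lines alone and 0 with at least 10 counts, which left 1 lower; for FAK-kd against FAK-/- cells, 1 was higher with glmTreat or at least 10 counts, and 0 were lower with either or with DESeq2. At least 10 counts in every library left 1 of the 34 genes to test (Tgm2), because FAK-WT replicate 1 is shallow, and 79 genes higher and 81 lower, 62 and 69, and 25 and 25 among all genes tested, in the order of the comparisons. The counts among all genes were 171 and 262, 193 and 257, and 56 and 61 with glmTreat, 1526 and 1896, 1443 and 1933, and 756 and 738 with the adjusted p-value alone, and 127 lower in the last comparison with DESeq2. For FAK-WT against FAK-/- cells they were 306 and 441 with DESeq2, 343 and 535 with filterByExpr, and 379 and 562 with the replicate block. The filterByExpr setting left 11 of the 34 genes to test. Leaving out each library in turn gave 1 to 2 member genes higher and 4 to 5 lower, 1 to 4 and 5 to 8, and 2 to 3 and 0 to 1, and among all genes tested 325 to 460 and 435 to 582, 334 to 541 and 441 to 609, and 128 to 194 and 134 to 214. Of the values recomputed for the 10 genes of highest mean expression and the type II share, 464 kept their side of the threshold, 15 gained a call, 15 lost one and 1 moved (the FAK-WT type II share, 40.7%). No called value changed direction, and among uncalled ones Krt10 for FAK-WT against FAK-kd cells did, from -0.06 to 0.03 without FAK-kd replicate 3. The cause of the other shifts was not tested.

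The replicate block gave 6 member genes called for FAK-WT against FAK-/- cells (Cnfn and Lor lost), 7 for FAK-WT against FAK-kd cells (Krt6a and Lor lost) and the same 3 for FAK-kd against FAK-/- cells. Nothing shows that the numbers pair the libraries: deviations from the line means over 11087 genes correlated with a mean r of -0.00321 between the 9 pairs with the same number and 0.00123 between the 18 with different numbers, and 2 of 9 libraries correlated best with their own number. Depth limits what can be called, since 27 of the 34 genes had a mean under 1 CPM.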
